A study of Homo sapiens with 43 samples.

Results

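Sox2 sites private to HCC95 are the Sox2 peaks of this lung squamous cell carcinoma line that share no base pair with a Sox2 peak of LK2, LK2_GFP, LK2_DNp63, NCI-H520, KNS62 or HCC2814. Of the 14048 HCC95 Sox2 peaks on chromosomes 1 to 22 and X, 7380 met this rule (52.5%, Wilson 95% interval 51.7 to 53.4, counting error only), and the 6668 remaining peaks are called the other HCC95 sites below. The 7 Sox2 lists together held 66376 peaks, which merged into 38933 sites. Chromatin immunoprecipitation with sequencing (ChIP-seq) was done for Sox2 in 5 unmodified lines (LK2, NCI-H520, HCC95, KNS62 and HCC2814) and in the LK2 derivatives LK2_GFP and LK2_DNp63, for p63 in LK2_DNp63, and for Brn2 in LK2 and NCI-H520. H3K27ac, the acetylation of lysine 27 on histone H3, was mapped in those 5 lines, in both derivatives and in 8 lines without Sox2 ChIP (LC-1/SQSF, HARA, HCC2279, HCC2450, Calu-1, EBC-1, SQ-1 and NCI-H2887), so called because no Sox2 list of theirs was used here. The lines were grown in the same medium with serum and the labels name no treatment. They do not say how the derivatives were made. LK2 and NCI-H520 had 2 H3K27ac libraries each, and all other targets and lines had 1, so every Sox2 value of HCC95 rests on 1 library of 1 line. The squamous identity of HCC95 was not checked against marker genes here.

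Sox2 is an HMG-box transcription factor of stem and progenitor cells. In the adult airway the cells that express it include basal cells. The Sox2 gene lies on the long arm of chromosome 3, in a segment that is often gained in squamous tumours, as does the gene of p63. Sox2 can bind DNA in closed chromatin and takes on different partners in different cell types, with p63 known as a partner in squamous cells and POU factors such as Brn2 in neural cells. H3K27ac marks active promoters and enhancers, and a binding site that lies in such a region is a candidate regulatory element in that line. A site is called acetylated in a line where it overlaps an H3K27ac peak of that line by at least 1 bp.

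The choice of these sites was set by the Sox2 lists, so their number and score are descriptions. HCC95 had the longest of the 7 Sox2 lists. The overlap of its peaks was highest with HCC2814 (3696 peaks, 26.3%) and KNS62 (3212, 22.9%) and lower with LK2_GFP (2374), NCI-H520 (1835), LK2 (1461) and LK2_DNp63 (1171). A further 1316 peaks would have been private but for HCC2814 alone, and 1081 but for KNS62 alone. The sequencing depth of every library was unknown, so a missing peak in another list does not show that Sox2 was unbound there. HCC95 is also the only line without an input among the samples, and the part of this in the private sites was not tested.

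Private sites sat low in the HCC95 list. Each peak carries the authors' score, used here only to rank peaks within a list. The median rank of a private site was 8499.5 of 14048, against 5124 for the other HCC95 sites. The private share rose from 19.9% in the decile of highest scores to 69.4% in the decile of lowest scores. Only 2 of the 100 top-ranked peaks and 175 of the top 1000 were private. Private sites were also narrower, with a median width of 402 bp (quartiles 313 and 508) against 491 bp for the other sites.

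The distance from a private site to the nearest Sox2 peak of another list varied widely. Its median was 21947.5 bp (quartiles 7792 and 53219.8). Such a peak lay within 100000 bp of 6554 sites (88.8%), within 10 kb of 2217 (30.04%) and within 1000 bp of 373 (5.05%). These distances were not compared with those of other positions in the genome. Those 373 sites, just inside the rule, had a median rank of 7788 and 75.9% of them were acetylated in HCC95. Just outside it, 37 other HCC95 sites shared at most 100 bp with a peak of another list and had a median rank of 9172, with 62.2% acetylated in HCC95.

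HCC95 had H3K27ac at more of the private sites than any of the 12 other lines. In HCC95 3730 private sites were acetylated (50.5%, 95% interval 49.4 to 51.7), and the share of all HCC95 Sox2 peaks was 56.1%. Thus the private sites were acetylated somewhat less often in HCC95 than the other HCC95 sites, of which 62.3% (61.2 to 63.5) were. LC-1/SQSF followed with 37.8% (36.7 to 38.9) of private sites, KNS62 with 34.6% (33.6 to 35.7), HARA with 28.2% (27.1 to 29.2) and HCC2814 with 22.1% (21.2 to 23.1). The intervals of these neighbours in the order did not overlap. LC-1/SQSF and HARA, for which no Sox2 list was used here, thus ranked above HCC2814, for which one was. The rule removed sites with a Sox2 peak in HCC2814, and its H3K27ac covered 31.6 Mb, against 69.4 and 60.9 Mb. As shares per covered Mb the order was reversed, with 0.700 in HCC2814, 0.544 in LC-1/SQSF and 0.462 in HARA. With the same number of top H3K27ac peaks from every list, the HCC95 share was 31.6%.

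The remaining lines were lower and closer together. The shares were 18.0% in HCC2279, 16.8% in HCC2450, 16.5% in Calu-1, 15.8% in EBC-1, 14.9% in SQ-1 and 13.6% in NCI-H2887. Neighbours within this group had overlapping intervals. NCI-H520 (11.1% and 12.2% in its libraries) and LK2 (9.81% and 7.64%) had the lowest shares of the 13 lines. LK2_GFP had 11.5% (10.8 to 12.3) and LK2_DNp63 15.5% (14.7 to 16.3).

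**Figure D1:**
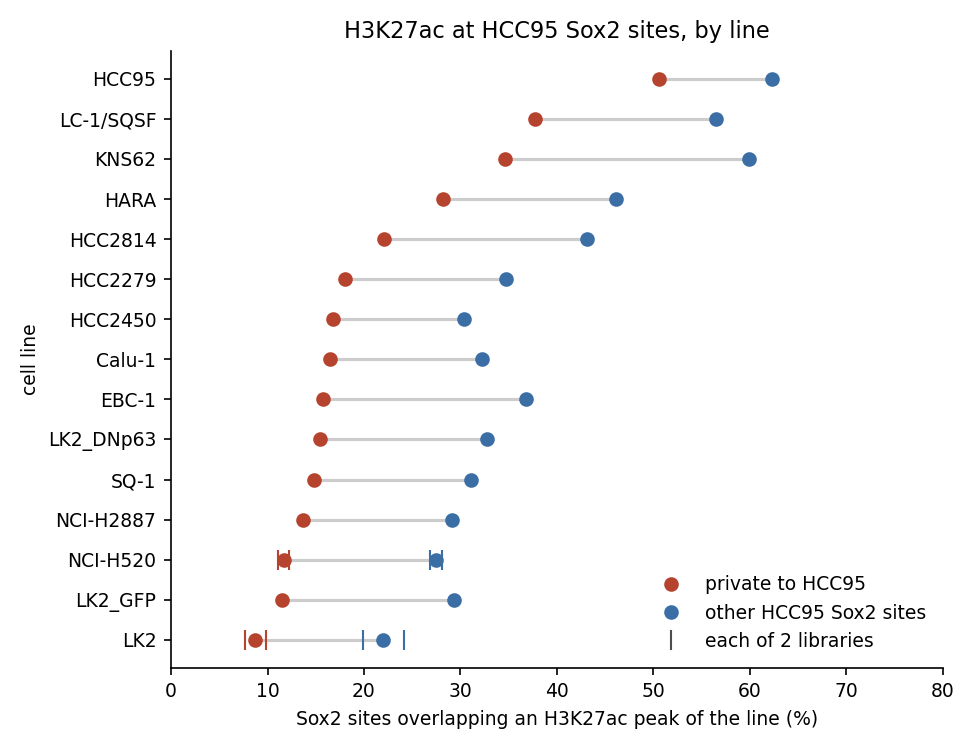
Percentage of HCC95 Sox2 sites that overlap an H3K27ac peak (x axis) in each cell line (y axis), for the 7380 private sites (red) and the 6668 other HCC95 sites (blue), with ticks for each library where a line has 2. Private sites lie to the left of the other sites in every line, and HCC95 leads with 50.5% of private sites.

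The difference between HCC95 and the mean of the 12 other lines (19.9% ± 9.09, SD, n = 12 lines) was 30.7 percentage points, and the HCC95 share exceeded that of 12 of 12 lines. HCC95 was the most extreme of the 13 lines, which gives an exact permutation p = 0.0769, two-sided, the smallest that 1 line against 12 allows. The design therefore cannot reach 0.05. After Benjamini-Hochberg adjustment over the 6 tests of this kind, 1 of which is not read here, it was 0.154. The rule required Sox2 in HCC95 and none in LK2, NCI-H520, KNS62 and HCC2814, so this p is no independent support. Of the 6 tests, only that of private against other sites in the 8 lines without Sox2 ChIP used no line that gave a list to the rule. With the same number of top H3K27ac peaks from every list the difference was 18.5 percentage points. H3K27ac covered 57.8 Mb in HCC95, 69.4 Mb in LC-1/SQSF, 68.0 Mb in KNS62, 60.9 Mb in HARA and 31.6 Mb in HCC2814. In the 8 lines with lower shares it covered 71.3 to 73.7 Mb in HCC2279, HCC2450 and Calu-1, 49.7 to 51.1 Mb in EBC-1, SQ-1 and NCI-H520, 35.4 Mb in NCI-H2887 and 26.9 Mb in LK2, the line with the lowest share. Covered length thus moved with the share among these 8 lines, and its part in the shares was not tested. As shares per covered Mb, HCC95 stood at 0.875, HCC2814 at 0.700, LC-1/SQSF at 0.544, KNS62 at 0.509 and HARA at 0.462, and the other lines from 0.226 to 0.385.

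In lines other than HCC95, private sites were acetylated less often than the other HCC95 sites. In the 8 lines without Sox2 ChIP, which gave no list to the rule, private sites were acetylated in 20.2% ± 8.39 of cases and the other sites in 37.1% ± 9.52 (SD, n = 8 lines). The private share was lower in 8 of 8 lines, with differences from -21.0 to -13.5 percentage points and a mean of -16.9 ± 2.31 (exact sign-flip permutation p = 0.00781, two-sided, the smallest possible, adjusted 0.0250). In KNS62 and HCC2814 the differences were -25.2 and -21.0 percentage points. The rule used the Sox2 lists of these 2 lines, so both differences are descriptions.

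The private sites of higher and lower score differed in H3K27ac in opposite ways in HCC95 and elsewhere. In HCC95, 59.3% (53.4 to 64.9) of private sites in the decile of highest scores were acetylated and 47.4% (44.3 to 50.5) in the decile of lowest scores. Over the 8 lines without Sox2 ChIP, the mean share was 15.0% in the decile of highest scores and 24.5% in that of lowest scores. The other HCC95 sites followed the same course, from 73.2% to 56.2% in HCC95 and from 29.9% to 42.9% over the 8 lines. In each of the 10 deciles private sites had the lower share, in HCC95 and in the mean of the 8 lines. In HCC95 the intervals, which hold counting error only, were separate in 7 of the 10. Median widths of private and other sites lay close together within a decile, for example 542 and 546 bp in the third and 299 and 301 bp in the last.

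**Figure D2:**
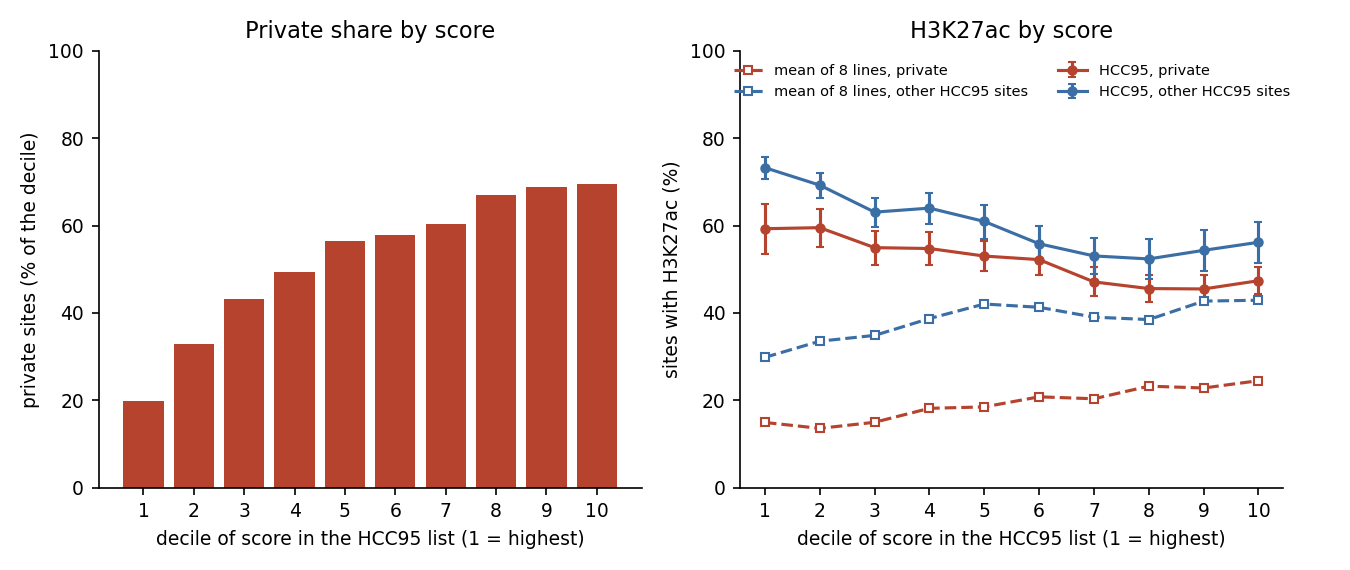
Left, share of private sites (y axis, %) in each decile of score in the HCC95 Sox2 list (x axis, 1 = highest). Right, share of sites with H3K27ac (y axis, %) by decile in HCC95 (filled symbols, 95% Wilson intervals) and as the mean of the 8 lines without Sox2 ChIP (open symbols). In HCC95 the private share with H3K27ac falls from 59.3% to 47.4%, and in the mean of the 8 lines it rises from 15.0% to 24.5%.

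Private sites were acetylated in few lines. For this count a site of LK2 or NCI-H520 was acetylated where either library held a peak. None of the 13 lines had H3K27ac at 2505 private sites (33.9%, 32.9 to 35.0), against 24.7% of all HCC95 Sox2 peaks and 14.5% of the other sites. HCC95 alone had it at 559 sites (7.57%, 6.99 to 8.20), against 5.15% of all HCC95 Sox2 peaks and 2.47% of the other sites. All 13 lines had it at 349 sites (4.73%, 4.27 to 5.24), against 7.12% of all HCC95 Sox2 peaks and 9.76% of the other sites. A further 1145 private sites (15.5%) had no H3K27ac in HCC95 but had it in another line, against 19.2% of all HCC95 Sox2 peaks and 23.2% of the other sites. The count for all 13 lines was 213 where the site's centre had to lie in H3K27ac, and with the same number of top H3K27ac peaks from every list it was 209 and the count for no line 3980.

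**Figure D3:**
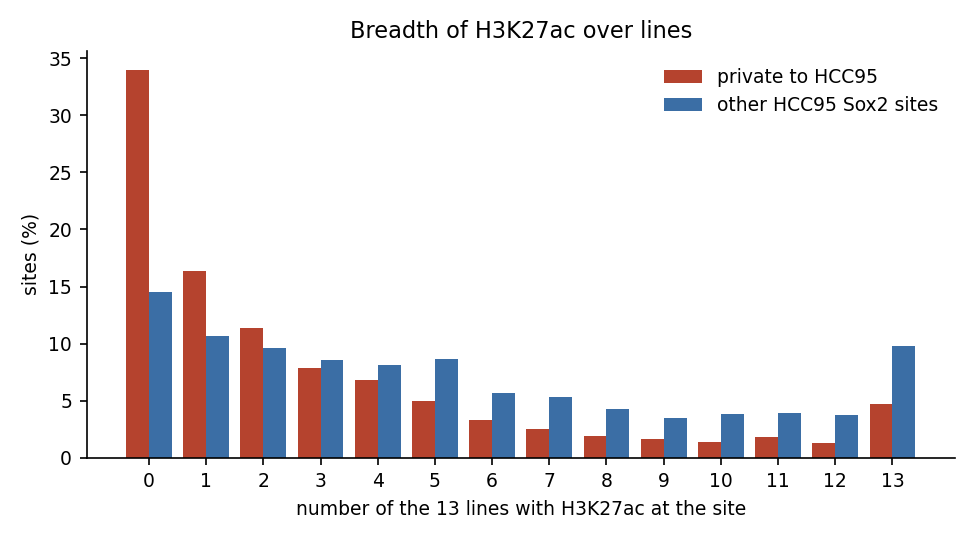
Share of sites (y axis, %) by the number of the 13 unmodified lines with H3K27ac at the site (x axis), for private sites (red) and other HCC95 sites (blue). Private sites exceed the other sites at 0, 1 and 2 lines, with 33.9% against 14.5% at 0 lines, and fall below them from 3 lines on.

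Where private sites shared H3K27ac with a single other line, that line was most often LC-1/SQSF. Of the 624 private sites acetylated in HCC95 and exactly 1 other line, 268 had LC-1/SQSF as the other line, 163 KNS62, 73 HARA and 38 HCC2814, and each remaining line had 1 to 22. LC-1/SQSF also led among the 651 private sites acetylated in 1 line that was not HCC95, with 241 sites, followed by HARA with 93 and KNS62 with 91. HCC95, LC-1/SQSF, KNS62 and HARA, a grouping made after these values were seen, were all acetylated at 1303 private sites (17.7%), and at 122 of those sites no other line was. At the other HCC95 sites the lead of LC-1/SQSF was smaller or absent. Of the 255 other sites acetylated in HCC95 and exactly 1 other line, 80 (31.4%) had KNS62 and 77 (30.2%) LC-1/SQSF, where the private sites had 26.1% and 42.9%. Of the 544 other sites acetylated in 1 line that was not HCC95, 137 (25.2%) had LC-1/SQSF, against 37.0% of private sites. The other sites overlap a Sox2 peak of KNS62, HCC2814, NCI-H520, LK2 or its derivatives by the rule, and no test of these shares was made. HCC95, LC-1/SQSF, KNS62 and HARA were all acetylated at 34.2% of the other HCC95 sites.

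Of the private sites acetylated in HCC95, 61.9% were acetylated in LC-1/SQSF, 59.8% in KNS62, 49.1% in HARA, 41.8% in HCC2814 and 16.3% to 30.4% in the 8 lines below them. All H3K27ac peaks of HCC95, with or without Sox2, were found more often in each of these lines: 68.9% in LC-1/SQSF, 70.8% in KNS62, 65.1% in HARA, 56.6% in HCC2814 and 37.2% to 52.0% in the 8 others. H3K27ac peaks are wider than Sox2 sites, and a wider interval overlaps more often.

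H3K27ac peaks were therefore also compared with each other. Of the 33197 HCC95 H3K27ac peaks, 29371 held no private site. There were 3575 H3K27ac peaks with private sites and no other Sox2 site, 251 with both kinds, 4050 with other Sox2 sites only and 25321 with none. H3K27ac peaks with private sites alone had a median width of 1747 bp and a median position at the top 44.8% of the H3K27ac list by score, similar to those with other Sox2 sites alone (1904.5 bp and 39.2%) and above those without Sox2 (1292 bp and 52.9%). The 251 with both kinds were wide (median 5361 bp) and near the head of the list (top 4.08%).

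H3K27ac peaks found in HCC95 and in no other line were more frequent among those with private sites alone. Such peaks made up 16.2% of the 3575 with private sites alone (579 peaks), 4.77% of the 4050 with other Sox2 sites alone and 9.90% of those without Sox2, against 9.89% of all HCC95 H3K27ac peaks. Of the 251 with private and other sites they made up 1.20% (3 peaks). In the narrowest of 4 width classes of equal size (up to 853 bp) the shares were 34.4% (30.8 to 38.2), 13.6% (11.1 to 16.5) and 21.7% (20.8 to 22.7). In the widest (from 2184 bp) they were 4.87% (3.85 to 6.15), 1.38% (0.928 to 2.04) and 1.45% (1.15 to 1.82). H3K27ac peaks with private sites alone had the highest share in all 4 width classes, and those with other Sox2 sites alone the lowest. The peaks with both kinds were not split by width. Without LC-1/SQSF among the other lines the share of 16.2% became 23.2%, and without KNS62 20.4%. The rule chose private sites for no Sox2 peak in LK2, its derivatives, NCI-H520, KNS62 or HCC2814, and the other sites for such a peak. The 4 unmodified lines named are among the lines compared, so the order of the shares can follow from the rule. No test was made, since HCC95 had 1 library of each target and peaks are not replicates. Copy number was not analysed here, so its part was not tested.

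Private sites outside HCC95 H3K27ac mostly lay more than 10 kb from it. The 3650 such sites had a median distance of 26052 bp to the nearest HCC95 H3K27ac peak (quartiles 8784 and 69518.8). Of these, 222 (6.08%) lay within 1000 bp, and 2641 (72.4%) lay beyond 10 kb. The same distances were not taken for the other HCC95 sites, so they are not shown to be particular to private sites.

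Some private sites of high score had no H3K27ac in HCC95. The private site with the highest score, at chromosome 2, 214116808 to 214117574 (hg19), ranked 22nd in the HCC95 list with a score of 1625.83. It had no H3K27ac in HCC95 and was acetylated in HARA, HCC2450, LC-1/SQSF and NCI-H520 and in LK2_GFP. The next site, at chromosome 2, 234414691 to 234415445 (rank 98), was acetylated in LC-1/SQSF alone, and the one of rank 116, at chromosome 3, 148939432 to 148940220, in HCC2279 alone. Of these 5 sites only the third and the fifth were acetylated in HCC95. The fifth, at chromosome 2, 36924380 to 36925262 (rank 118), lay in an HCC95 H3K27ac peak of 9897 bp and was also acetylated in HARA and KNS62.

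The third, at chromosome 20, 38247264 to 38248419 (rank 108, score 960.34), led the 559 private sites acetylated in HCC95 alone, in an H3K27ac peak of 817 bp, shorter than the Sox2 peak itself (1156 bp), whose centre lay outside it. Its nearest Sox2 peak of another list was 57369 bp away. The next sites of this kind lay at chromosome 3, 141578859 to 141579603 (rank 318), chromosome 9, 104270248 to 104271136 (rank 417), chromosome 20, 2903501 to 2904121 (rank 436), and chromosome 12, 58986049 to 58986693 (rank 494). The last of these lay 1203 bp from a Sox2 peak of another list, and the site on chromosome 20 from 2903501 lay 146152 bp from one. That site alone of the 5 kept its H3K27ac in HCC95 under every setting tried. The 4 others lost it where the centre had to lie in H3K27ac and with the same number of top H3K27ac peaks from every list, and 3 of them also with an overlap of 50% of the shorter peak.

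Sites without H3K27ac in any of the 13 lines included peaks of high score, whereas sites with H3K27ac in all 13 did not. The highest without H3K27ac were at chromosome 20, 11907669 to 11908380 (rank 132), chromosome 9, 88756432 to 88757363 (rank 182), chromosome 13, 25814954 to 25815735 (rank 273), chromosome 15, 35219722 to 35220446 (rank 291), and chromosome 7, 80856587 to 80857415 (rank 306). The highest of the 349 sites acetylated in all 13 lines ranked 2104th, at chromosome 3, 196467720 to 196468682, followed by chromosome 3, 187455040 to 187455812 (rank 2614), and chromosome 20, 270822 to 271369 (rank 2917). These ranks are descriptions, since the score belongs to the list that gave the sites.

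The p63 sites of LK2_DNp63 were compared with the private sites next. The shorter p63 isoform of basal cells is commonly called DNp63. A p63 peak overlapped 382 private sites (5.18%, 4.69 to 5.71), against 6.33% of all HCC95 Sox2 peaks, 7.60% (6.99 to 8.26) of the other HCC95 sites and 5.30% of the wider HCC95 H3K27ac peaks. Seen from the p63 list, 380 of its 3159 peaks (12.03%) overlapped a private site and 502 (15.9%) one of the other HCC95 sites. Among private sites p63 overlapped 7.69% (6.88 to 8.59) of those acetylated in HCC95 and 2.60% (2.13 to 3.17) of those that were not. Among the other HCC95 sites it overlapped 9.74% (8.88 to 10.7) and 4.06% (3.36 to 4.91). The p63 library came from LK2_DNp63 and not from HCC95, and no p63 list of HCC95 was analysed here.

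Private sites with p63 divided the 13 lines into 2 ranges. They were acetylated in 75.1% (70.6 to 79.2) of cases in HCC95, 66.5% (61.6 to 71.0) in KNS62, 58.1% (53.1 to 62.96) in LC-1/SQSF, 52.6% (47.6 to 57.6) in HARA and 41.9% (37.0 to 46.9) in HCC2814. In the 8 other unmodified lines the shares ran from 10.99% in NCI-H2887 to 16.8% in HCC2279. Private sites without p63 had 49.2%, 32.9%, 36.7%, 26.8% and 21.0% in the first 5 lines and 8.57% to 18.1% in the 8 others. A higher share with p63 was thus seen in the 5 lines, by 20.8 to 33.6 percentage points, and the 8 other lines had differences from -3.04 to 2.94. The same 5 lines stood apart at the other HCC95 sites with p63. There the shares were 79.9% in HCC95, 78.3% in KNS62, 71.8% in LC-1/SQSF, 63.7% in HARA and 56.8% in HCC2814. In the 8 other unmodified lines they ran from 15.4% in NCI-H2887 to 25.05% in EBC-1. The 2 ranges are thus not particular to private sites. No test was made of this split, which was seen in the values.

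LK2_DNp63 had H3K27ac at more private p63 sites than LK2_GFP. Its share was 44.2% (39.3 to 49.3), against 15.2% (11.9 to 19.1) in LK2_GFP and 12.6% and 10.5% in the LK2 libraries. Of the 382 sites, 116 were acetylated in LK2_DNp63 and not in LK2_GFP, 5 in LK2_GFP and not in LK2_DNp63, and 53 in both. Neither LK2 library had H3K27ac at 109 of the 116. At private sites without p63 the shares were 13.9% (13.1 to 14.7) in LK2_DNp63 and 11.3% (10.6 to 12.1) in LK2_GFP. Of these 6998 sites, 268 were acetylated in LK2_DNp63 and not in LK2_GFP, and 86 in LK2_GFP and not in LK2_DNp63. Neither LK2 library had H3K27ac at 226 of the 268. At the other HCC95 sites with p63 LK2_DNp63 was also higher, with 58.4% (54.0 to 62.6) against 33.1% (29.2 to 37.3) in LK2_GFP. The H3K27ac lists held 30149 peaks (36.6 Mb) in LK2_DNp63 and 33454 (33.8 Mb) in LK2_GFP. By the rule, none of the private sites held a Sox2 peak in LK2_DNp63. The p63 peaks that chose these sites came from LK2_DNp63, and no p63 list came from LK2_GFP. That choice can favour LK2_DNp63, so the values at sites with p63 are descriptions. There was 1 library per derivative, so the difference of 29.1 percentage points at private p63 sites has no replicate check. With the same number of top H3K27ac peaks from every list it was 14.9.

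**Figure D4:**
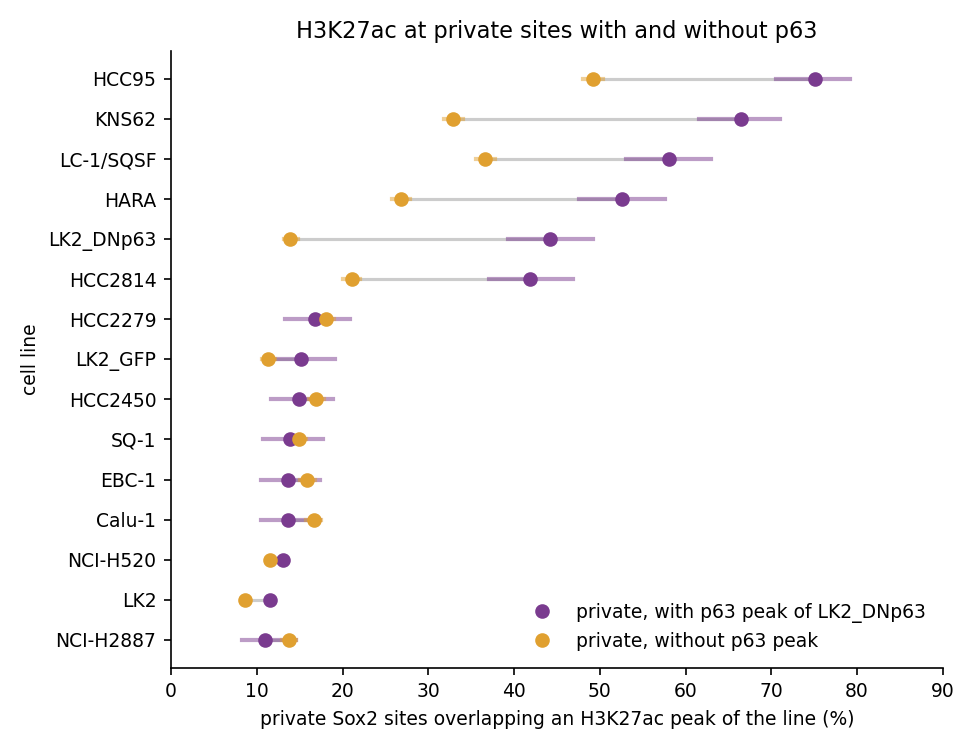
Share of private sites with H3K27ac (x axis, %) in each cell line (y axis) for the 382 private sites that overlap a p63 peak of LK2_DNp63 (purple) and the 6998 that do not (orange), with 95% Wilson intervals for lines with 1 library. HCC95, KNS62, LC-1/SQSF, HARA, LK2_DNp63 and HCC2814 lie between 41.9% and 75.1% at sites with p63, and all other lines at or below 16.8%.

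The private p63 sites of highest score lay at chromosome 9, 70607120 to 70607799 (rank 510), chromosome 8, 36838856 to 36839509 (rank 883), chromosome 6, 11475880 to 11476635 (rank 1000), chromosome 3, 143846511 to 143847385 (rank 1034), and chromosome 3, 151036587 to 151037293 (rank 1147). The first was acetylated in HCC95, HARA, KNS62 and LC-1/SQSF, and the last 2 in those lines and in HCC2814. The site on chromosome 8 was acetylated in HARA and KNS62, and the site on chromosome 6 in none of the 13 lines. None of the 5 was acetylated in LK2_DNp63 or LK2_GFP.

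Brn2 peaks, from LK2 and NCI-H520, rarely fell on private sites. Brn2 of LK2 overlapped 79 private sites (1.07%, 0.860 to 1.33), against 4% of all HCC95 Sox2 peaks. Brn2 of NCI-H520 overlapped 34 (0.461%, 0.330 to 0.643), against 0.776%. The rule removed sites with a Sox2 peak in these lines. The other HCC95 sites that overlapped Sox2 of KNS62 or HCC2814 alone had lower shares still, with 0.665% (0.439 to 1.00) for Brn2 of LK2 and 0.212% (0.103 to 0.436) for Brn2 of NCI-H520, and no test of these differences was made.

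Private sites of the other 4 lines, chosen by the same rule, served for comparison. NCI-H520 had 6345 private sites (52.7% of its list), KNS62 4289 (48.2%) and HCC2814 2414 (32.1%), and LK2 had 3604 (47.4%) against the 4 other unmodified lines. The line of origin was acetylated at 50.9% of the private sites of KNS62, 50.5% of those of HCC95, 48.5% of those of NCI-H520, 28.4% of those of HCC2814 and 22.3% of those of LK2. The mean over the 12 other lines was 22.2%, 19.9%, 15.3%, 20.04% and 7.34%. The line of origin had the highest share of the 13 lines in each list apart from HCC2814, where LC-1/SQSF was higher (30.8%). For the HCC95 list the next line was LC-1/SQSF, and for the KNS62 list it was EBC-1 (37.9%).

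Within these 5 lines, the line of origin exceeded the other lines by 26.0 percentage points on average, the largest value of the 120 ways to assign the H3K27ac lists (exact permutation p = 0.00833, one-sided, the smallest possible, adjusted 0.0250). Each list required a Sox2 peak in its line of origin and none in the other lines. The rule can thus favour the line of origin, so this value and its p are descriptions. With the same number of top H3K27ac peaks from every list the value was 16.6. The share of HCC95 private sites acetylated in KNS62 (34.6%) was higher than the share of KNS62 private sites acetylated in HCC95 (17.8%), while for HCC2814 the shares were 22.1% and 22.3%. The private sites of HCC95 overlapped p63 peaks more often (5.18%) than those of HCC2814 (1.91%, 1.43 to 2.53), KNS62 (1.47%, 1.15 to 1.87), LK2 (1.28%, 0.958 to 1.70) or NCI-H520 (0.599%, 0.437 to 0.821). These intervals hold counting error only and not the spread between libraries or lines. The whole Sox2 lists stood in the same order, with p63 at 6.33% of HCC95 peaks, 5.13% of HCC2814, 4.31% of KNS62, 2.30% of LK2 and 1.38% of NCI-H520. Each list is 1 library, so these differences were not tested over samples.

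**Figure D5:**
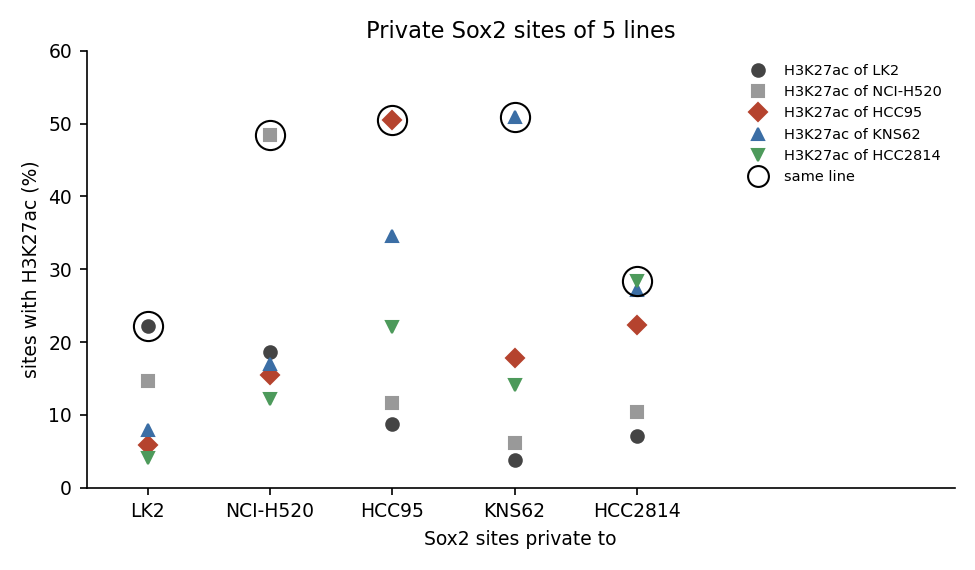
Share of sites with H3K27ac (y axis, %) among the Sox2 sites private to each of 5 lines (x axis), with 1 symbol for the H3K27ac of each line and a ring around the line of origin. The ringed value is the highest of the 5 in every list, at 50.5% for HCC95, and the gap to the next line is smallest for HCC2814.

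Sets of lines were compared at the private sites of HCC95. KNS62 and HCC2814 (28.4% ± 8.84, SD, n = 2 lines) exceeded LK2 and NCI-H520 (10.2% ± 2.08, n = 2) by 18.2 percentage points, with an exact permutation p = 0.333, the smallest that 2 lines against 2 allow (adjusted 0.480). With the same number of top H3K27ac peaks from every list the difference was 8.43. The 4 lines with Sox2 ChIP other than HCC95 (19.3% ± 11.7) and the 8 lines without it (20.2% ± 8.39) differed by -0.896 percentage points (exact permutation p = 0.879, two-sided, adjusted 0.879), a difference within the spread between lines. The rule required that the first 4 lines had no Sox2 peak at these sites.

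Most private sites stood alone. With sites chained at gaps of up to 10 kb, 6167 were single and 1213 (16.4%) formed 564 chains of 2 or more, of which 495 held 2 sites, 58 held 3, 8 held 4, 2 held 5 and 1 held 7. A Sox2 site of HCC95 of either kind lay within 10 kb of 26.8% (25.8 to 27.8) of private sites, against 28.5% of all HCC95 Sox2 peaks and 30.4% (29.4 to 31.6) of the other sites. Chained private sites were acetylated in HCC95 more often, with 67.4% (64.7 to 69.9) against 47.2% (46.0 to 48.5) of single ones. The 970 private sites within 10 kb of an other HCC95 site were acetylated in 71.5% (68.6 to 74.3) of cases, and the remaining 6410 in 47.4% (46.1 to 48.6).

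The largest chain, of 7 private sites, lay at chromosome 19, 50595725 to 50626694. Its sites ranked 7077th to 13872nd and 2 of them were acetylated in HCC95. NCI-H520 was the only other line with H3K27ac anywhere in the span of 30970 bp. The centres of its sites were 2038 to 8371 bp apart.

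The chains of 5 sites had more H3K27ac. At chromosome 5, 73527898 to 73547149, all 5 sites were acetylated in HCC95, and H3K27ac of 9 other lines lay in the span. Its best site ranked 1236th, at 73544279 to 73544967, and was acetylated in HCC95 alone, while 2 neighbours from 73536586 and from 73537617 were acetylated in 7 lines. At chromosome 3, 183256122 to 183278293, 4 of 5 sites were acetylated in HCC95, with H3K27ac of HCC2814, LC-1/SQSF and NCI-H2887 in the span. The best site, at 183274452 to 183275354, ranked 1290th.

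Of the 7 further chains named, each with 4 private sites, 2 lay wholly within HCC95 H3K27ac. The first, at chromosome 9, 97676412 to 97688800, lay in an H3K27ac peak of 21036 bp, which was found in all 12 other lines and also held 2 other HCC95 sites. The second, at chromosome 3, 189507097 to 189517707, lay in an H3K27ac peak of 12158 bp. That peak held no other Sox2 site and was found in HARA, HCC2814, KNS62, LC-1/SQSF and NCI-H2887. Its best site, at 189507097 to 189507715, ranked 1224th. A second HCC95 H3K27ac peak on the same chromosome, at 189550852 to 189564978, held 3 private sites and 1 other, so that 7 private sites lay in 2 H3K27ac peaks of this region.

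The other chains of 4 showed H3K27ac in fewer lines than the chain on chromosome 9 from 97676412. Those at chromosome 2, 178178720 to 178190845, and chromosome 9, 95532179 to 95536984, had all 4 sites acetylated in HCC95, and HARA, HCC2814, KNS62 and LC-1/SQSF were the only other lines with H3K27ac in the span. Those at chromosome 1, 180535131 to 180554727, chromosome 6, 34994078 to 35014302, and chromosome 5, 4533696 to 4545358, had 3 of 4 sites acetylated in HCC95, with H3K27ac of 5, 7 and 2 other lines. Of the 10 chains, 1 held a p63 peak of LK2_DNp63, that on chromosome 9 from 97676412. Within single H3K27ac peaks, 154 peaks held 2 private sites, 13 held 3 and 2 held 4.

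Private sites were found on every chromosome used, and their share of the HCC95 peaks ran from 46.9% on chromosomes 16 and 17 to 63.3% (57.9 to 68.4) on chromosome 18 and 64.8% (56.8 to 72.1) on chromosome X, against 52.5% overall. Chromosome 3 had 584 private sites, 49.2% (46.4 to 52.0) of its 1187 HCC95 peaks. In windows of 1 Mb, chosen for description after the values were seen, the highest count was 21 private sites among 27 HCC95 peaks at chromosome 5, 73000001 to 74000000, which also contains the chain of 5 sites. The windows at chromosome 9, 97000001 to 98000000, and chromosome 18, 3000001 to 4000000, had 20 each, among 31 and 44 HCC95 peaks. The median over the 2099 windows with any private site was 3.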

How the data were processed

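The deposited peak lists, 1 per sample, give a position, a name and a score for every peak. The score is the authors' own value, and no header states its scale. The submitters' processing notes name Bowtie2 and hg19 (GRCh37). Peak names begin with MACS. Its threshold and whether inputs were used are not stated in the labels or headers. The samples include an input for each other line and both derivatives but none for HCC95. The files hold no read counts, so depth is unknown. Brn2 chromatin was prepared differently from the rest, with a second cross-linker and a nuclease, per the labels' protocols. Of 43 samples, the 16 inputs were not analysed here, and 26 HCC95 Sox2 peaks on other chromosomes were left out. Starts are 1-based. Overlaps, Wilson intervals (95%) and exact permutation tests were computed in Python 3.11.15 with numpy, pandas and scipy 1.17.1, and checked on simulated intervals. LK2 and NCI-H520 count as the mean of their 2 H3K27ac libraries. All tests were run over lines, with the sites held fixed. Their p-values thus leave out any variation in the Sox2 lists, each of which is 1 library. The labels name no separate cultures, and with 1 or 2 libraries per line part of the spread between lines may be technical. Named sites were the 5 of highest score in each of 5 classes (all, acetylated in HCC95 alone, in none or all of 13 lines, with p63), the 10 chains with most sites and the 5 H3K27ac peaks with most private sites. The sites and lists were chosen with earlier results of these data known. No genome or annotation of hg19 was used here, so genes, motifs, sequences and squamous markers are not given. Alternatives covered overlap, equal numbers of top peaks, score, chain gap and lines left out.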

Additional observations from a re-analysis of the deposited data

Results flagged for a closer look

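Among the 3650 private sites without H3K27ac in HCC95, LC-1/SQSF had H3K27ac at 13.1%, a value far from those of the 7 other lines without Sox2 ChIP, which ran from 3.26% in NCI-H2887 to 6.74% in HARA. It was marked because its gap to the nearest line was 0.646 of the whole range, above the limit of 0.526 for 8 values. Of the 14 groups of values examined this was the only one marked, and chance marks about 1 group in 20. H3K27ac of these 8 lines covered 35.4 to 73.7 Mb, with 69.4 Mb in LC-1/SQSF, and its part in the value was not tested.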

How the results depend on the processing

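The higher share of acetylated private sites in HCC95 than in the 12 other lines kept its direction under all alternatives run for it, and its p cannot reach 0.05 in any of them. The lower private share in the 8 lines without Sox2 ChIP and the higher share in the line of origin kept their direction and a p under 0.05 under theirs. The result for the line of origin remains a description, since the rule chose each list by the Sox2 peaks of these lines. Lines left out gave 29.6 to 32.3 percentage points, -17.4 to -16.3 and 23.4 to 29.5, with exact permutation p of 0.0833, 0.0156 and 0.0417, the smallest possible. Shares per covered Mb gave a difference of 0.502 percent per Mb between HCC95 and the 12 lines. The alternatives for H3K27ac in 1, none or all lines, for named sites and for p63 sites were chosen after seeing the data. The number of private sites was 2834 among peaks ranked above the median score and 3343 with 7511 top peaks of each Sox2 list (LK2_DNp63 kept whole). Both settings keep only part of the 14048 HCC95 peaks, so these counts have a smaller base than the 7380. With a line left out the number was 7820 to 8696, a rise by construction. The share acetylated in HCC95 was 49.2% with no other Sox2 peak within 1000 bp, 55.5% above the median score, 43.5% with an overlap of 50% of the shorter peak, 43.4% with the centre inside, 53.5% within 1000 bp and 31.6% with 16470 top H3K27ac peaks of each list. The p63 share of the other HCC95 sites was 9.02% above the median score and 8.34% within 1000 bp, and the private share stayed between 5.08% and 5.70%. Chains numbered 355 at 5 kb and 860 at 20 kb. The difference between lines with and without Sox2 ChIP, -0.896, turned to 0.243 without HARA, 1.62 without LC-1/SQSF, 2.63 without LK2 and 1.64 without NCI-H520, and was -6.01 without KNS62, with exact permutation p from 0.309 to 0.967. KNS62 and HCC2814 exceeded LK2 and NCI-H520 by 11.9 to 24.4 with a line left out. The excess of LK2_DNp63 over LK2_GFP at private p63 sites ran from 14.9 to 30.4 percentage points over 4 settings. Of 24 named sites, 10 kept their number of acetylated lines with the same number of top H3K27ac peaks, 13 with the centre inside, 15 with an overlap of 50% and 22 with H3K27ac within 1000 bp. No paired analysis was possible because replicate numbers occur only in LK2 and NCI-H520, as libraries of the same target averaged per line.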
